A study of Mus musculus with 33 samples.

Results

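The 35 genes described here encode the contractile machinery of the myoepithelial cell: smooth muscle actins and their regulators, the smooth muscle myosin motor with its kinase and phosphatase, the proteins that anchor filaments to membranes, the receptor and channels that start contraction, and the factors that transcribe these genes. They were chosen by name, and all 35 were found among the 55487 genes of the count table and passed the low-count filter (at least 10 reads summed over the libraries), which 36527 genes passed. The libraries came from sorted mammary cells of mice that developed mammary tumors or remained tumor-free, with the gene for PTHrP (parathyroid hormone-related protein) intact or deleted by Cre.

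The mice carried MMTV-Cre and the ROSA mTmG reporter in every group, tumor-free controls included, so that cells in which Cre had acted became GFP+. PTHrP WT mice were Pthrp wt/wt and PTHrP KO mice were Pthrp flox/flox, and tumor mice carried in addition the MMTV-PyMT transgene, in which the mouse mammary tumor virus promoter drives the polyoma middle T antigen in mammary epithelium. The MMTV-PyMT and MMTV-Cre lines were of the FVB strain. The floxed mice had been backcrossed to FVB from another strain, and the background of the reporter line was not stated. PTHrP WT tumors were sampled at week 6, week 8 and week 10 (n = 3 each) and at week 12 (n = 1), and PTHrP KO tumors at week 8, week 10 and week 12 (n = 3 each). The authors place weeks 6, 8 and 10 in WT mice, and weeks 8, 10 and 12 in KO mice, at hyperplasia, adenoma and carcinoma. Tumor-free glands were represented by 2 mice at each of weeks 6, 8, 10 and 12 in WT and weeks 8, 10 and 12 in KO. That makes 10 WT tumors, 9 KO tumors, 8 WT glands and 6 KO glands, with 1 library per mouse. The tissue was digested, the cells were kept in serum-containing culture before GFP+ cells were sorted, and ribosome-depleted total RNA was sequenced, so the levels are those of cultured cells.

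Myoepithelial cells form the outer, basal layer of mammary ducts and alveoli and squeeze milk toward the nipple. Oxytocin binds its receptor on these cells, calcium rises, myosin light chain kinase phosphorylates the regulatory light chain, and the smooth muscle myosin pulls on smooth muscle actin; myosin phosphatase and the cGMP-dependent kinase oppose the cycle. Many of these genes share a promoter element, the CArG box, that is bound by the serum response factor SRF, for which myocardin is a coactivator.

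The RefSeq promoter table (GRCm38.p6; 250 bases before and 50 after each transcription start) held 31 of the 35 genes, and Actg2, Myh11, Tagln and Myocd had no entry in it. A CArG box, searched by its full consensus, which is its own complement in form and so reads the same on both strands, lay in the promoters of 7 of the 31 genes (22.6%), against 488 of 27025 genes in the whole table (1.81%). Those 7 promoters are printed here because they belong to genes whose levels moved in different ways in tumors. Each line gives the stretch around the box on the gene's own strand, with the box in capitals.
Myl9, chr2:156775273-156775342, plus strand: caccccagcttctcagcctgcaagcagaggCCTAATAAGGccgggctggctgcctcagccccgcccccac
Trpc6, chr9:8543990-8544059, plus strand: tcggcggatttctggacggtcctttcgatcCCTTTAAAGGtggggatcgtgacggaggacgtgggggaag
Vcl, chr14:20929148-20929210, plus strand: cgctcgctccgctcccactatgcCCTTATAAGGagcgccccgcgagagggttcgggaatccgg
Cnn2, chr10:79988514-79988583, plus strand: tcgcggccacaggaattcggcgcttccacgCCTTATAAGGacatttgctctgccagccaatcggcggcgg
Srf, chr17:46556205-46556274, minus strand: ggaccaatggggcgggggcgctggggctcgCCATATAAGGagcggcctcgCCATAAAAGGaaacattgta
Dmd, chrX:82948742-82948811, plus strand: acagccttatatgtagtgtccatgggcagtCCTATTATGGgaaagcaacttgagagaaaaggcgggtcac
Ldb3, chr14:34588682-34588746, minus strand: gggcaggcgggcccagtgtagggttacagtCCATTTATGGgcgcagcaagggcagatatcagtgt

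Vcl and Cnn2 share the box CCTTATAAGG letter for letter, and Srf holds 2 boxes. These matches are a description of the letters in the windows and not of sites used in these cells.

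The libraries held 28419983 to 130981596 reads counted in genes (median 46351179). Ribosomal RNA genes took at most 0.447% of the reads of any WT library but up to 18.8% in KO glands and 12% in KO tumors, and the counts among the 35 genes in each comparison that includes the 3 libraries over 10% are given with and without them. The PyMT transgene had 0 reads in all 14 glands and 107 to 7489 reads in the tumors. Pthlh, which encodes PTHrP, was at 1.35 to 2.29 CPM (reads scaled to the library's size) in KO tumors, 1.46 to 6.67 CPM in WT tumors, 2.93 to 7.72 CPM in WT glands and 2.79 to 8.52 CPM in KO glands. The KO and WT ranges overlapped, and a count over the whole gene does not check the loss of the floxed part. At the floxed exon itself, the authors report no aligned reads in any KO sample. Luminal epithelial markers (14 genes) summed to 6066 to 14078 CPM in every class of library and basal markers that are not contractile (16 genes) to 2351 to 16818 CPM, so both epithelial layers were represented in the GFP+ cells. In bulk samples of this kind, fewer cells of a type and less RNA per cell cannot be told apart.

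The contractile genes were lower in tumors than in tumor-free glands in both genotypes, by an amount that ran from over 8-fold for 12 genes in WT to no fall at all for Ldb3, Dmd and Kcnma1. Averaged over weeks 6, 8 and 10, 25 of 35 genes fell in PTHrP WT tumors, where 9.53% of all tested genes were called lower, and 1 gene rose, where 6.21% were called higher. Averaged over weeks 8, 10 and 12, 22 of 35 fell in PTHrP KO tumors against 5.44% of all genes, and 1 rose against 5.16%. Calls are those of the edgeR quasi-likelihood test at a Benjamini-Hochberg adjusted p below 0.1 with a change of more than 1.5-fold. The median log2 fold change of the 35 genes was -1.79 in WT and -1.70 in KO, against 0.03 and 0.09 over all genes tested. The 22 genes that fell in KO all fell in WT. A fall of over 4-fold was called for 17 genes in each genotype, and one of over 8-fold for 12 genes in WT and 6 in KO. Leaving out any 1 of the 15 libraries behind each mean kept the call of 21 of the 25 WT genes and of 20 of the 22 KO genes.

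**Figure D1:**
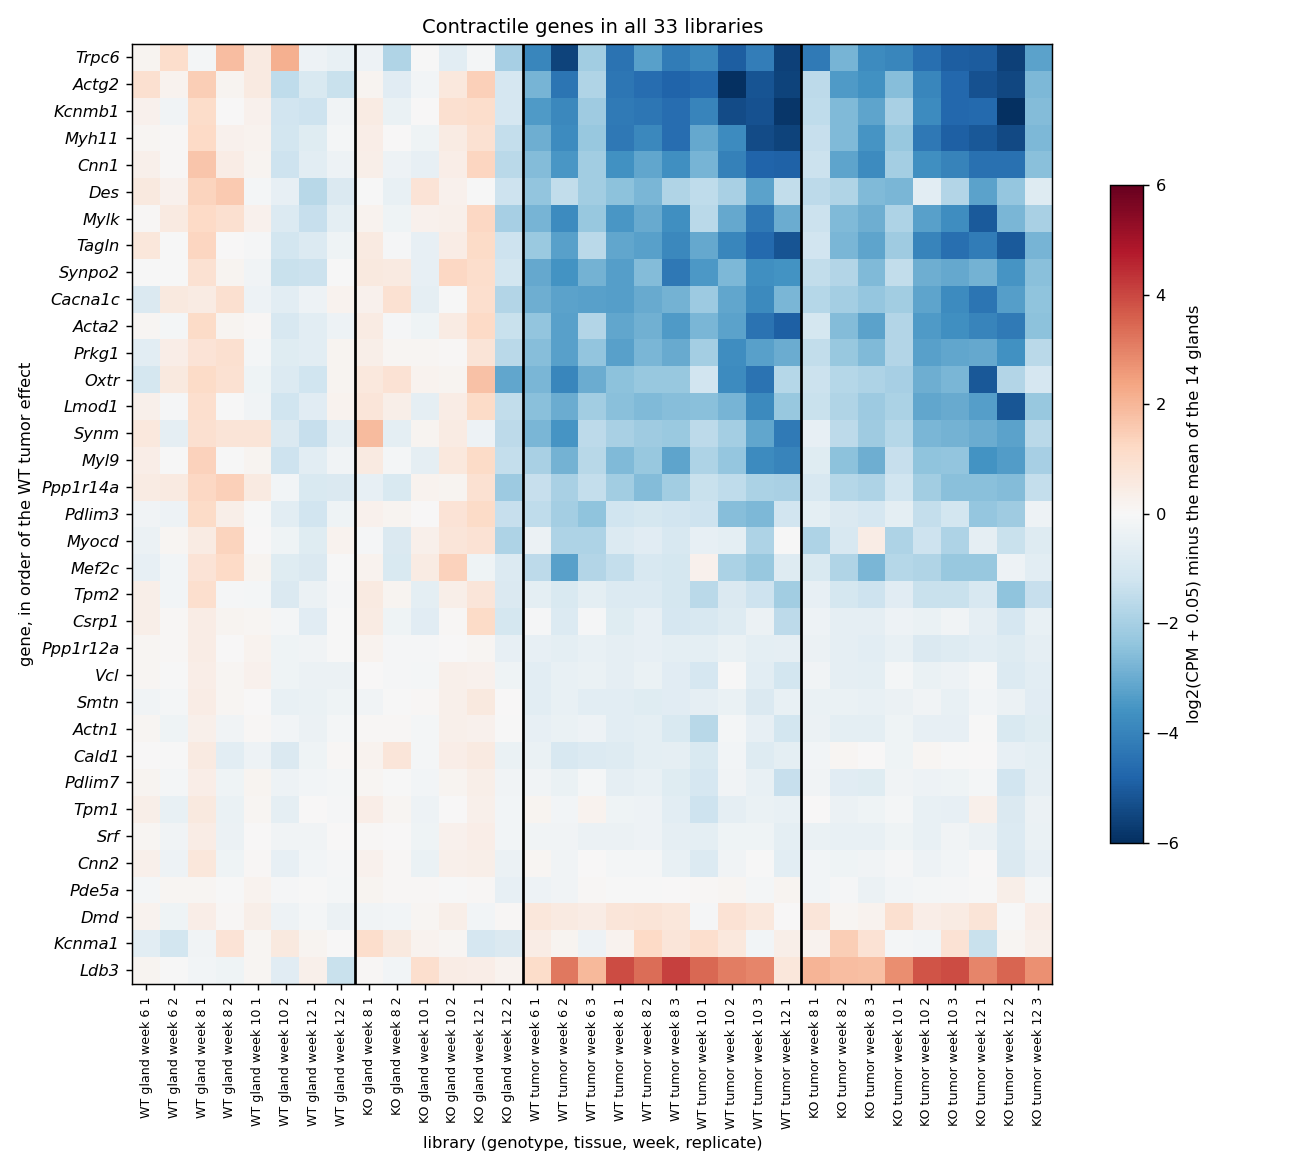
Heatmap of the 35 genes, ordered by the WT tumor effect, in the 33 libraries, with glands on the left and tumors on the right. Color is log2(CPM + 0.05) minus the gene's mean over the 14 glands, and most genes are blue (lower) across the 19 tumors, Ldb3 is red (higher), and Pde5a, Dmd and Kcnma1 are pale.

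The actins and their regulators (10 genes) held the highest median level of the set in glands, that of Acta2, while in tumors the highest median CPM was that of the anchor Actn1, at 1254. Acta2, alpha smooth muscle actin and the classical marker of myoepithelium (19:34241090-34255590, minus strand, GRCm38), stood at 1429, 2686 and 6033 CPM (lowest, median, highest) in the 8 WT glands and at 93.4, 302 and 801 CPM in the 10 WT tumors. By age, WT glands read 2991 and 2500 CPM at week 6, 6033 and 3059 at week 8, 2872 and 1429 at week 10, and 1785 and 2218 at week 12, while WT tumors read 530, 289 and 801 at week 6, 312, 376 and 261 at week 8, 410, 293 and 127 at week 10, and 93.4 at week 12. Every WT tumor lay below every WT gland. KO glands read 3872 and 2648 CPM at week 8, 2329 and 3869 at week 10, and 6387 and 1072 at week 12, and KO tumors 1313, 454 and 299, then 825, 261 and 217, then 175, 147 and 497. The first KO tumor of week 8, at 1313 CPM, was the only tumor above the lowest gland, the second KO gland of week 12 at 1072 CPM. The log2 fold change of Acta2 was -3.05 (SE 0.40, 8.3-fold, edgeR adjusted p = 2.49e-06) in WT and -2.95 (SE 0.40, 7.73-fold, adjusted p = 6.59e-06) in KO.

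Actg2, the enteric gamma smooth muscle actin (6:83512905-83536265, minus strand), ranged from 72.1 to 569 CPM in glands and from 2.53 to 68.6 CPM in tumors, so that no tumor reached any gland. Actg2, Trpc6, Kcnmb1 and Synpo2 were the 4 genes with all 19 tumors below all 14 glands, where 0.608% of all tested genes had that pattern, and 0 of 35 had all tumors above all glands, against 0.534%. Its log2 fold change was -4.63 in WT (SE 0.52, adjusted p = 2.49e-07) and -3.56 in KO (SE 0.50, adjusted p = 1.03e-05). Tagln, or SM22, which binds and bundles actin, went from 618, 1402 and 3496 CPM in glands (lowest, median, highest) to 39.9, 151 and 653 CPM in tumors, a log2 fold change of -3.33 (SE 0.43) in WT and -3.21 (SE 0.43) in KO. Cnn1, smooth muscle calponin, which restrains actomyosin, fell as well (-3.58, SE 0.46, in WT and -3.10, SE 0.45, in KO). Lmod1, a leiomodin that nucleates actin filaments in smooth muscle, was at -2.71 (SE 0.36) and -2.79 (SE 0.36). Tpm2, a tropomyosin of the thin filament, fell less (-1.0 and -1.30, SE 0.23 for both). Smtn, smoothelin, was just past the fold threshold in WT (-0.59, SE 0.10, adjusted p = 4.98e-05), a call that held in 8 of 15 fits that left out a library, and just inside it in KO (-0.52, SE 0.10, adjusted p = 0.000282).

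The other 3 regulators did not pass. Cald1, caldesmon, was at -0.49 in WT (adjusted p = 0.0474, fold 1.4) and -0.39 in KO (adjusted p = 0.152). Tpm1, another tropomyosin, was at -0.33 in both genotypes (adjusted p = 0.223 and 0.275), and Cnn2, a calponin also found outside muscle, at -0.23 and -0.33 (adjusted p = 0.384 and 0.221). These genes were abundant on both sides: Tpm1 read 1016 to 2240 CPM in glands and 631 to 1803 CPM in tumors, and Cnn2 387 to 852 and 296 to 574 CPM. Per kilobase of exon, Acta2 led the set in glands (median 1257 CPM per kb over 14 glands), followed by Tagln at 705, Csrp1 at 517, Actn1 at 328, Myl9 at 303, Tpm2 at 295, Tpm1 at 232 and Cnn2 at 218. In tumors Csrp1 (345), Actn1 (227), Cnn2 (187), Tpm1 (179) and Tpm2 (151) stood above Acta2 (136) and Tagln (76.2).

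The myosin motor and its switches (5 genes) fell together in WT. Myh11, the smooth muscle myosin heavy chain (16:14194535-14291372, minus strand), read 362, 1027 and 2191 CPM in glands and 20.2, 69.8 and 368 CPM in tumors (lowest, median, highest). Only the first KO tumor of week 8, at 368 CPM, exceeded the lowest gland. Its log2 fold change was -3.81 in WT (SE 0.48, 14.1-fold lower, adjusted p = 1.39e-06) and -3.35 in KO (SE 0.47, 10.2-fold lower, adjusted p = 1.15e-05). Mylk, the myosin light chain kinase, was at -3.34 (SE 0.46) in WT and -2.74 (SE 0.45) in KO, and Myl9, the regulatory light chain it phosphorylates, at -2.61 and -2.43 (SE 0.39 for both). Ppp1r14a, or CPI-17, a smooth muscle inhibitor of myosin phosphatase that is expressed at a few CPM, was at -2.56 in WT and -1.70 in KO (SE 0.30 for both). Ppp1r12a, the targeting subunit of that phosphatase in most cell types, changed by far less: it read 160 to 303 CPM in glands and 124 to 175 CPM in tumors, with log2 fold changes of -0.63 in WT (SE 0.09, adjusted p = 1.39e-05) and -0.57 in KO (SE 0.09, adjusted p = 8.67e-05), where the fold of 1.48 was under the threshold. The WT call of Ppp1r12a held in 13 of 15 fits that left out a library.

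The receptor, channels and cGMP arm (7 genes) included the deepest fall of the set in WT, while in KO the deepest was that of Actg2. Trpc6, a receptor-operated cation channel that admits calcium (9:8544142-8680741, plus strand), read 2.12, 8.02 and 38.2 CPM in glands and 0.127, 0.425 and 2.02 CPM in tumors (lowest, median, highest), again with no overlap. Its log2 fold change was -5.06 in WT (SE 0.49, 33.4-fold, adjusted p = 3.39e-08) and -3.51 in KO (SE 0.48, 11.4-fold, adjusted p = 8.25e-06). Of the 50-base windows of its exons, 3.79% occur in another gene, the largest share in the set, where all others were at or under 0.611%. Kcnmb1, the smooth muscle beta subunit of the calcium-activated BK potassium channel (11:33963013-33973641, plus strand), read 4.88 to 25.3 CPM in glands and 0.106 to 4.01 CPM in tumors without overlap, with log2 fold changes of -4.27 (SE 0.49) and -3.41 (SE 0.47). Its partner Kcnma1, which encodes the pore of the same channel (14:23289431-24014491, minus strand), did not fall: 0.2, 0.537 and 1.08 CPM in glands and 0.16, 0.611 and 1.43 CPM in tumors, with log2 fold changes of 0.57 in WT (SE 0.30, interval -0.06 to 1.19, adjusted p = 0.225) and 0.35 in KO (SE 0.32, interval -0.30 to 1.00, adjusted p = 0.632). Kcnma1 rested on 5 to 69 reads per library, and the intervals given are 95% intervals from the quasi-likelihood test's own degrees of freedom.

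Cacna1c, the pore of the L-type calcium channel, fell (-3.15 in WT and -2.86 in KO, SE 0.34 for both), as did Prkg1, the cGMP-dependent protein kinase that relaxes smooth muscle (-3.01, SE 0.35, and -2.51, SE 0.34). Pde5a, the phosphodiesterase that degrades cGMP (3:122728947-122859374, plus strand), was level, at 17.9, 25.9 and 29.5 CPM in glands and 20.1, 24.5 and 32.3 CPM in tumors. Its log2 fold change of -0.09 in WT (SE 0.09, interval -0.29 to 0.10) and -0.06 in KO (SE 0.09, interval -0.26 to 0.14) gave intervals that lie within a fold of 1.5 in either direction. Oxtr, the oxytocin receptor (6:112473683-112489943, minus strand), varied widely among libraries of a class. It read 51.3 to 255 CPM in WT glands and 5.43 to 52.8 CPM in WT tumors, and 13.6 to 401 CPM in KO glands and 3.35 to 58.5 CPM in KO tumors, so the ranges met at their edge in WT, while in KO 8 of the 9 tumors lay above the lowest gland and 0 above the next, at 132 CPM. The log2 fold change of Oxtr was -2.79 (SE 0.53, adjusted p = 0.000337) in WT and -2.57 (SE 0.53, adjusted p = 0.000983) in KO, where it was -1.25 without the first KO gland of week 12, the library at 401 CPM.

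Among the anchors and filament linkers (10 genes), 6 fell in WT and 5 in KO, where 9.53% and 5.44% of all genes were called lower. In each genotype 1 rose, where 6.21% and 5.16% were called higher, and the remainder did not pass. Synpo2, or myopodin, an actin-bundling Z-line protein, fell (-3.21, SE 0.35, and -2.89, SE 0.34), with all tumors (0.681 to 5.09 CPM) below all glands (5.61 to 33.2 CPM). Synm, the intermediate filament protein synemin, was at -2.66 and -2.24 (SE 0.39 for both), and Pdlim3, an actinin-associated LIM protein, at -1.79 and -1.40 (SE 0.32 for both). Des, desmin, the muscle intermediate filament, was scarce throughout, at 3 to 67 reads in a gland and 0 to 16 in a tumor, and was at -3.36 and -2.10 (SE 0.52 for both). The broadly expressed linkers moved little. Csrp1, a LIM protein of smooth muscle and other cells, was at -0.73 (SE 0.21, adjusted p = 0.0153) and -0.59 (SE 0.21, adjusted p = 0.0678), and Vcl, vinculin of focal adhesions, at -0.62 (SE 0.13, adjusted p = 0.000927) and -0.43 (SE 0.13, adjusted p = 0.0245, under the fold threshold). Csrp1 was at -0.08 in KO without the first KO gland of week 12, and its KO call held in 8 of 15 such fits. Actn1, alpha-actinin, was at -0.57 and -0.58 and Pdlim7 at -0.47 and -0.49, all with adjusted p of 0.0138 to 0.0188 and folds under 1.5.

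Ldb3, which encodes the Z-line PDZ and LIM protein Cypher (14:34526603-34588682, minus strand), rose. WT glands read 0.86 and 0.747 CPM at week 6, 0.687 and 0.627 at week 8, 0.855 and 0.457 at week 10, and 0.976 and 0.274 at week 12. WT tumors read 1.71, 7.2 and 3.14 CPM at week 6, 12.4, 8.4 and 14.1 at week 8, 8.83, 6.87 and 6.3 at week 10, and 1.26 at week 12. KO glands read 0.825 and 0.674 CPM, 1.6 and 1.06, and 1.02 and 0.886 at weeks 8, 10 and 12, and KO tumors 3.28, 2.9 and 2.82, then 5.62, 11.1 and 12, then 6.29, 9.06 and 5.5. The lone WT tumor of week 12 was the only tumor under the highest gland. The log2 fold change of Ldb3 was 3.30 in WT (SE 0.30, 9.85-fold, adjusted p = 1.24e-08) and 2.56 in KO (SE 0.30, 5.91-fold, adjusted p = 8.84e-07), the smallest p of the set in both means. The level remained low on a per-length scale, at a median of 1.03 CPM per kb in tumors and 0.138 in glands. Its promoter holds a CArG box, as do those of Myl9 and Trpc6, which fell, and of Vcl, which fell in WT. Promoters of Dmd, Cnn2 and Srf also hold the box, and these genes did not pass in either mean. Another listed promoter of Dmd holds none, and the counts do not tell which promoter was used.

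Dmd, dystrophin, which ties actin to the membrane complex (X:82948870-85206141, plus strand), also went against the set without passing the fold threshold. It read 39.8, 49.8 and 66.8 CPM in glands and 47.7, 73.3 and 99.3 CPM in tumors (lowest, median, highest), with log2 fold changes of 0.50 in WT (SE 0.15, fold 1.41, adjusted p = 0.0173) and 0.49 in KO (SE 0.15, fold 1.4, adjusted p = 0.0251). Ldb3, Dmd and Kcnma1 were the only genes of the 35 with a positive log2 fold change in both means.

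**Figure D2:**
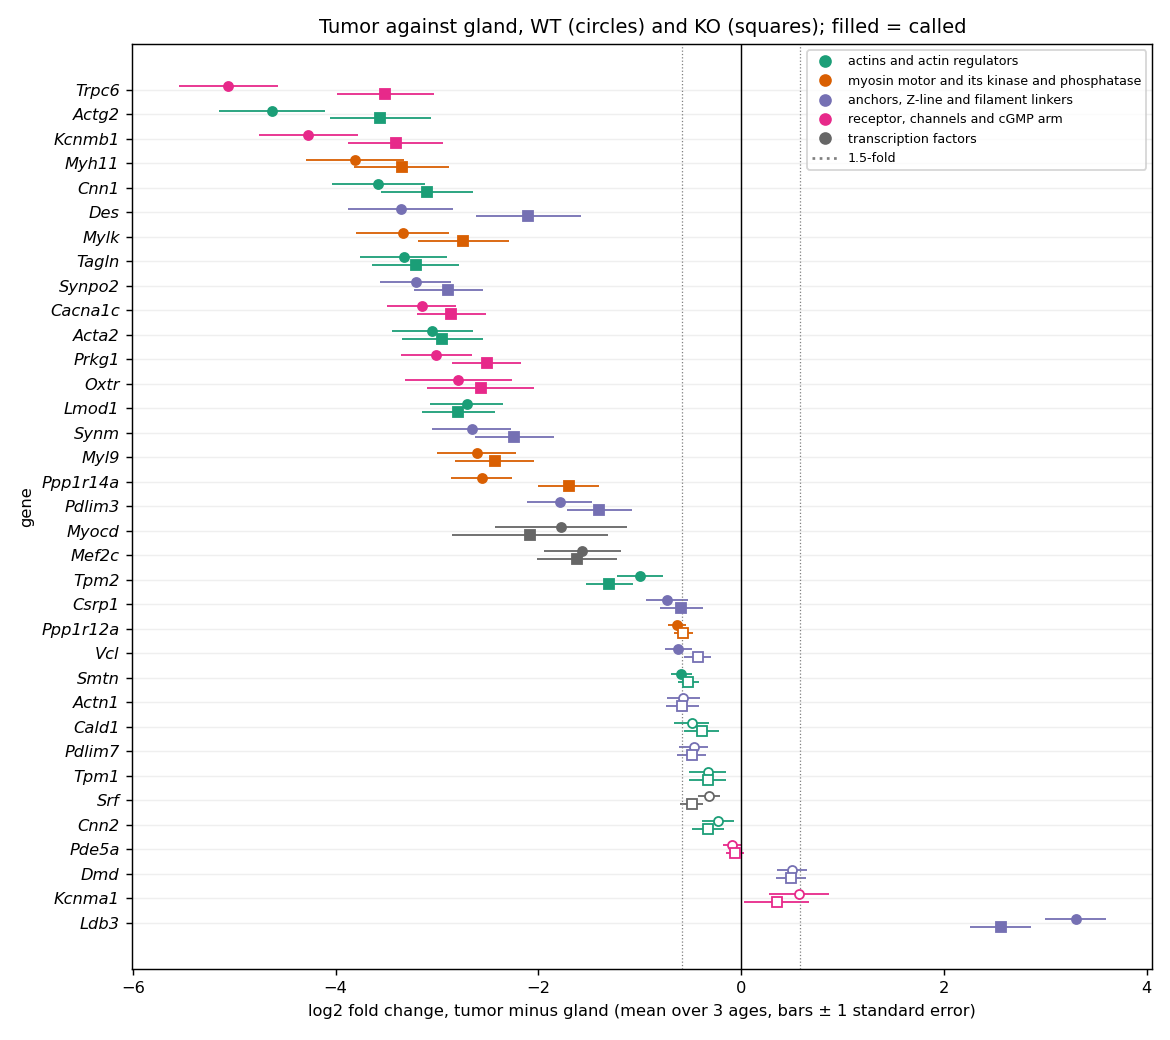
Mean log2 fold change of tumor over tumor-free gland for each of the 35 genes, with bars of ±1 SE, in PTHrP WT (circles; weeks 6, 8 and 10) and PTHrP KO (squares; weeks 8, 10 and 12), filled where called and colored by role. Genes run from Trpc6 at -5.06 in WT to Ldb3 at 3.30, and 22 genes have both marks filled on the left.

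Of the transcription factors (3 genes), Mef2c, a MADS-box factor, fell (-1.57, SE 0.38, adjusted p = 0.00383, and -1.62, SE 0.39, adjusted p = 0.00432) from a median of 1.76 CPM in glands. Myocd, myocardin, was called lower at -1.78 (SE 0.65, adjusted p = 0.0604) and -2.08 (SE 0.77, adjusted p = 0.0755), but on 0 to 20 reads per library. Its call held in 11 of 15 fits in WT and 7 of 15 in KO that left out a library, and its KO value was -0.04 without the first KO gland of week 12. Srf, the factor that binds the CArG box, was at 93.1 to 158 CPM in glands and 66 to 103 CPM in tumors, with log2 fold changes of -0.32 in WT (adjusted p = 0.0403) and -0.49 in KO (adjusted p = 0.00227), both under the fold threshold. Both values were closer to 0 than those of Acta2, Tagln and Cnn1, known SRF targets.

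Ranked by the WT mean, the order was Trpc6, Actg2, Kcnmb1, Myh11, Cnn1, Des, Mylk, Tagln, Synpo2, Cacna1c, Acta2, Prkg1, Oxtr, Lmod1, Synm, Myl9 and Ppp1r14a, from -5.06 to -2.56, after which Pdlim3 at -1.79 and Myocd at -1.78 followed. Among the first 17, neighbours in this order differed by less than their SE, which ran from 0.30 to 0.53. The mean effects in WT and KO correlated across the 35 genes with a Pearson coefficient of 0.981 and a Spearman coefficient of 0.968, a description across genes that share libraries.

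**Figure D3:**
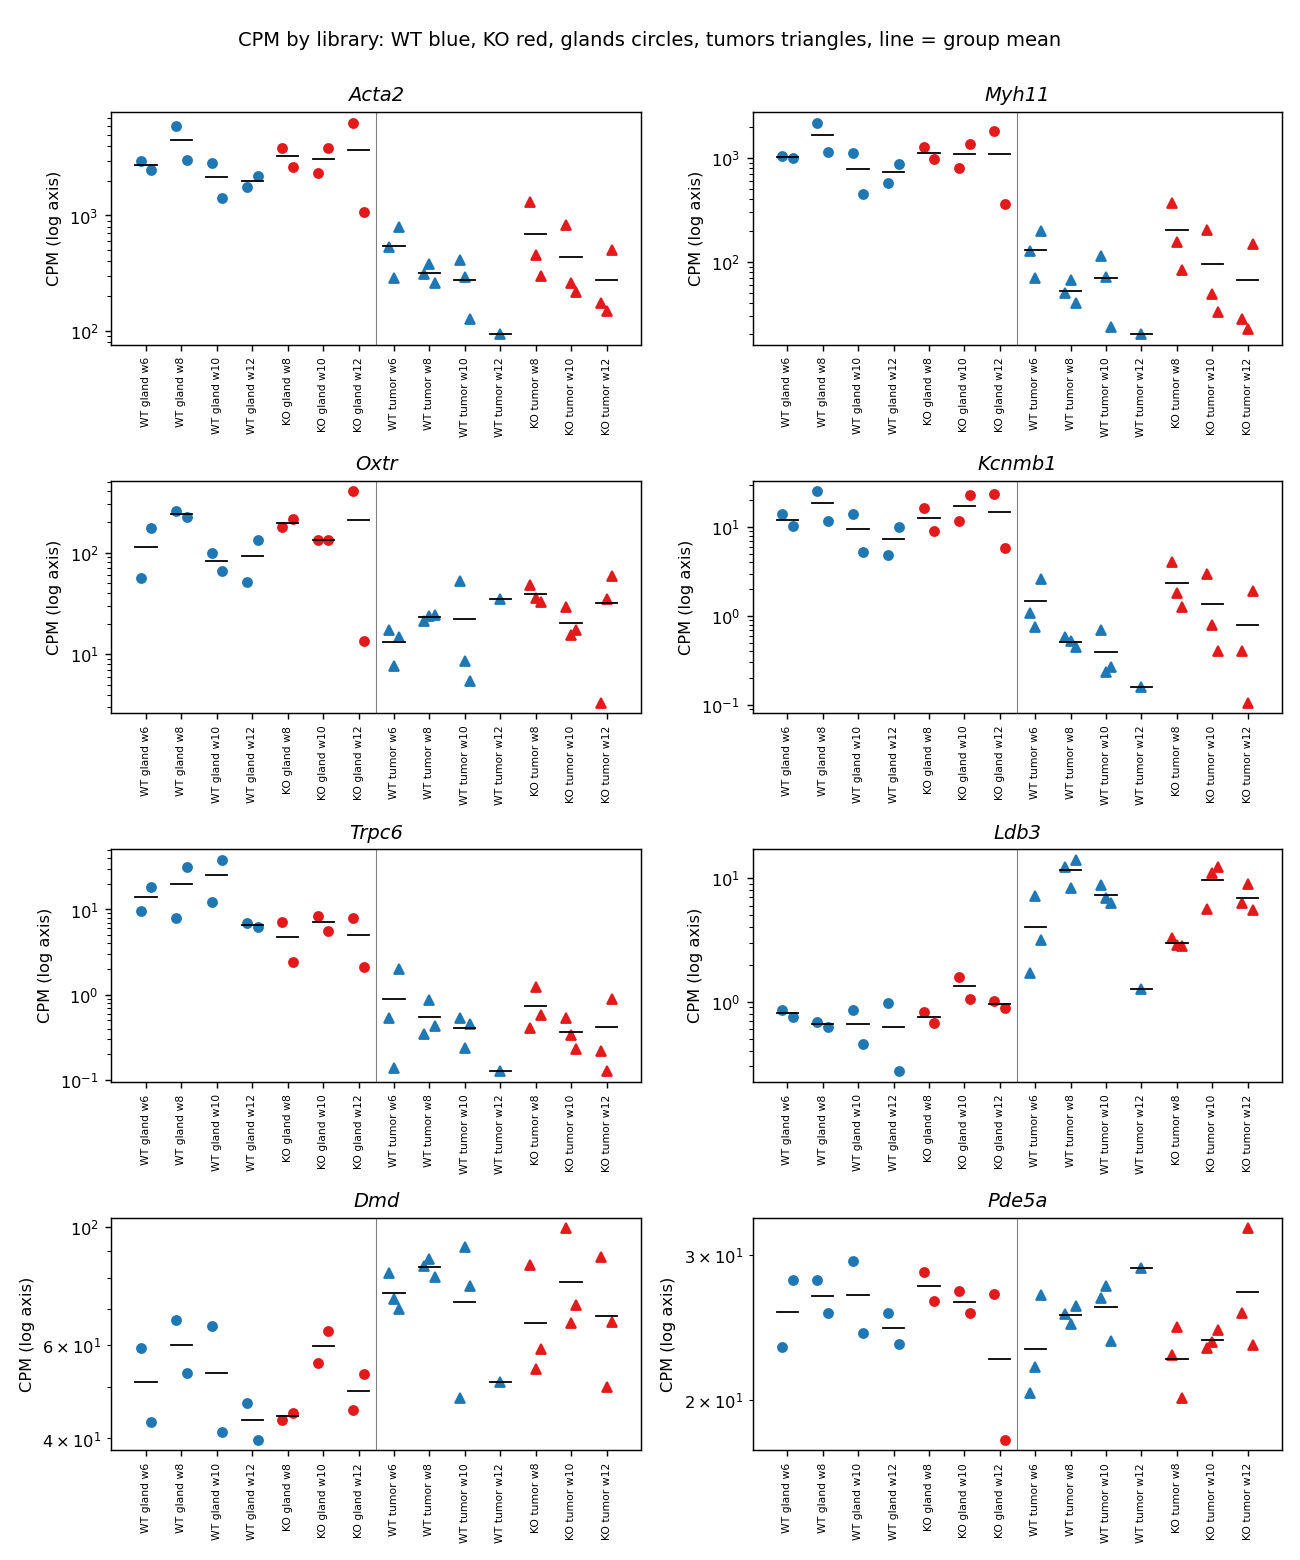
CPM (log axis) of 8 of the genes in every library, by genotype, tissue and week, with WT in blue, KO in red, glands as circles, tumors as triangles and a line at each group mean. Acta2 runs from 1072 to 6387 CPM in glands and from 93.4 to 1313 CPM in tumors, while Ldb3 runs from 0.274 to 1.6 CPM in glands and 1.26 to 14.1 CPM in tumors.

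The loss was present at the earliest stage sampled. At week 6, the WT hyperplasia, 19 of 35 genes fell against 3.53% of all tested genes, and Ldb3 was the 1 gene that rose against 2.32%. At week 8, 26 fell (5.84% of all genes) and Ldb3 rose (3.35%), and at week 10, 16 fell (3.67%) and Ldb3 rose (2.46%). In KO mice 7 fell at week 8 (1.38% of all genes), 17 at week 10 (3.09%) and 20 at week 12 (2.92%), with Ldb3 rising each time (1.11%, 2.57% and 3.19%). The medians of the 35 log2 fold changes were -1.82, -2.49 and -1.73 in WT and -1.25, -2.14 and -1.65 in KO. Before adjustment, p was below 0.05 for 25, 30 and 23 of the 35 in WT and for 24, 24 and 26 in KO, either direction. In WT 29 of the 35 log2 fold changes were lowest at week 8, and in KO 21 were lowest at week 12 and 9 at week 10. These weeks reflect the glands as well as the tumors. For 25 of the 35 genes the highest WT gland was the first of week 8, and for 7 the second. The highest KO gland was the first of week 12 for 21 genes.

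Of the 17 genes with a WT mean below -2, all 17 were called at weeks 6 and 8 and 15 at week 10 in WT. In KO 6 of them were called at week 8 and 15 at each later week. Selection by the WT mean favors the WT counts. A KO mean below -2 was also held by 17 genes, 16 of them the same. The values behind the KO counts of week 8 were not near 0. Actg2 was at -2.37 (SE 0.83, adjusted p = 0.192) at KO week 8, -3.75 at week 10 and -4.55 at week 12, Acta2 at -2.24 (SE 0.68, adjusted p = 0.102), -2.84 and -3.77, and Myh11 at -2.48 (SE 0.80, adjusted p = 0.133), -3.53 and -4.04. In WT the same 3 genes were at -3.31, -5.51 and -5.07 (Actg2), -2.35, -3.85 and -2.96 (Acta2), and -2.97, -4.99 and -3.48 (Myh11), at weeks 6, 8 and 10. Trpc6 stood apart in WT, where it went on to -5.93 at week 10, against glands at 12.4 and 38.2 CPM. Oxtr was called lower at weeks 6 and 8 in WT (-3.12 and -3.37) and at week 12 in KO (-2.69), and at WT week 10, with tumors at 52.8, 8.55 and 5.43 CPM, was at -1.88 (SE 0.90, adjusted p = 0.316). The KO falls of weeks 8 and 10 were not called, although all tumors lay below both glands. They read 32.6 to 47.9 against 179 and 212 CPM, and 15.3 to 29.1 against 132 and 134 CPM. At KO week 12 tumors and glands overlapped (3.35 to 58.5 against 13.6 and 401 CPM).

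Trpc6, Synpo2, Cacna1c, Prkg1 and Lmod1 fell in all 6 age-matched comparisons, 10 genes fell in 5, and 7 passed in none (Myocd, Cald1, Tpm1, Cnn2, Pde5a, Dmd and Kcnma1). No share of all genes is given for these patterns. In the single comparisons 1.38% to 5.84% of all genes were called lower. Shallow falls were seen for Actn1 and Pdlim7 at WT week 8 only (-0.78 and -0.67, adjusted p = 0.0969 for both), for Vcl at WT week 8 (-0.81, adjusted p = 0.0229), for Smtn at WT week 8 and KO week 12 (-0.96 and -0.73), and for Srf at KO week 12 (-0.67, adjusted p = 0.0399). Csrp1 and Tpm2 fell at WT week 8 and KO week 12, with Csrp1 at -1.03 and -1.08 and Tpm2 at -1.45 and -1.62. Mef2c fell at WT week 8 (-2.21) and KO week 10 (-3.05), and Des at WT weeks 6 and 8 (-2.97 and -4.74).

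With 2 glands and 3 tumors an age, these counts rest on few libraries. At week 6 they dropped from 19 to 7 or 5 without the first or second WT tumor and to 9 or 5 without the first or second WT gland, and Ldb3 was not called without the second gland. At WT week 10 the count was 4 without the first gland and 10 without the third tumor. At KO week 8 it was 0 without the first gland or the third tumor, 1 without the second gland or the second tumor, and 13 without the first tumor, and Ldb3 was not called without either gland. At KO week 10 it was 2 without the second gland and 10 without the third tumor, and at KO week 12 it was 3 without the first gland, where Pde5a joined Ldb3 as higher (0.60, adjusted p = 0.0795). Fitted on its own groups alone, KO week 12 had 0 of 35 genes called, 0 of all genes tested there. The WT week 8 count stayed between 20 and 25, and the counts from the means between 21 and 26 in WT and 20 and 24 in KO. Dmd passed the fold threshold in WT (0.62, adjusted p = 0.00647) without the first WT gland of week 10.

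**Figure D4:**
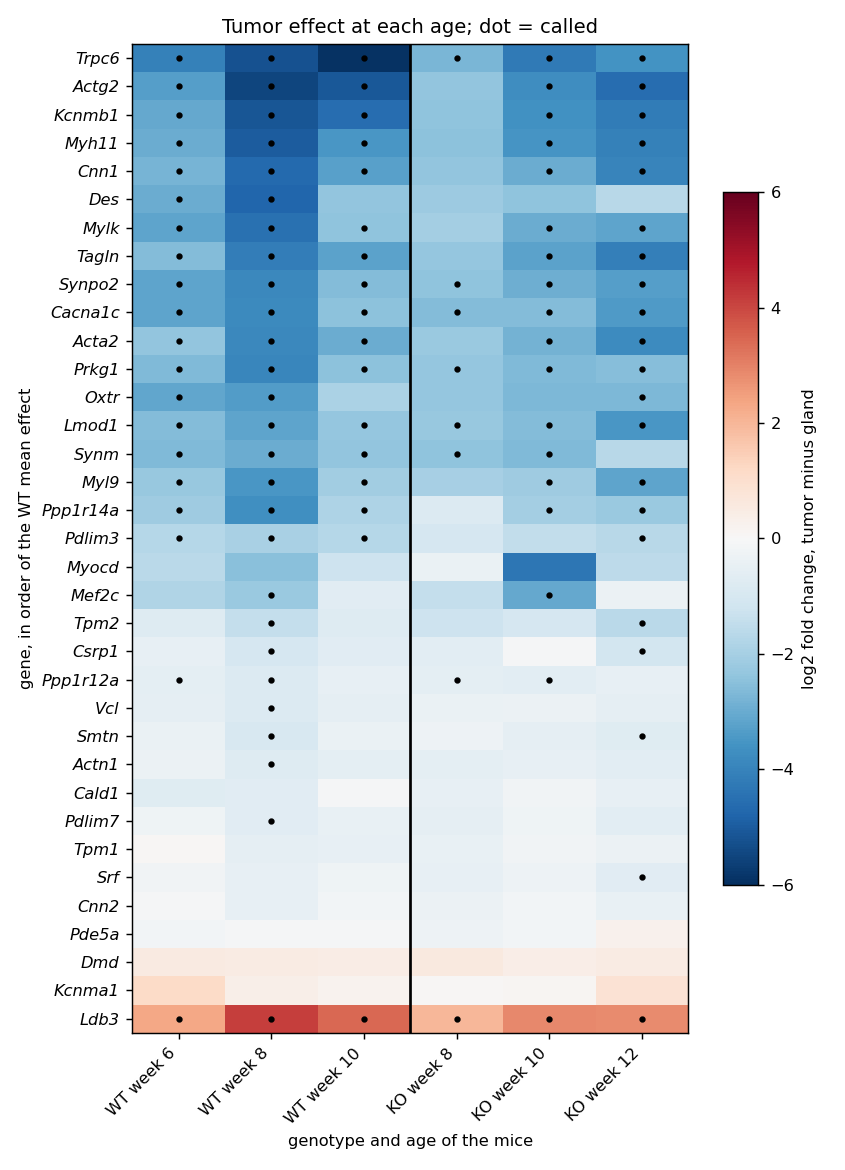
Log2 fold change of tumor over age-matched gland (color) for the 35 genes by week, WT on the left and KO on the right, with a dot where the gene was called. Of the 17 genes with a WT mean below -2, 16 are darkest at week 8 in WT and 12 at week 12 in KO, and Ldb3 is red at every age. The color depends on the glands of that age as well as on the tumors.

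Within tumors, age made no difference that passed. Between week 10 and week 6 of WT tumors 0 of 35 genes were called, against 0.011% of all genes, and between week 12 and week 8 of KO tumors 0 of 35, against 0% of all genes. At an unadjusted p under 0.05, 5 genes differed in WT and 8 in KO, and DESeq2 called 1 (Actg2) and 0. Over all genes tested, 3122 and 2878 had such a p, and DESeq2 called 139 lower and 114 higher in WT and 65 and 60 in KO. Of the 35, the adjusted p of the gene with the smallest p was 0.457 in WT (edgeR, Actg2, -2.58 at week 10 relative to week 6) and 0.587 in KO (Ldb3, 1.21). The lone WT tumor of week 12, which no comparison includes, held Acta2 at 93.4 CPM, Myh11 at 20.2 CPM, Tagln at 39.9 CPM and Trpc6 at 0.128 CPM. It was the lowest of the 10 WT tumors for 14 of the 35 genes, and its Oxtr, at 35.2 CPM, was not among them.

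Whether loss of PTHrP altered the contractile genes was asked by 4 comparisons, and none called any of the 35. The tumor effect in WT minus that in KO, averaged over the 3 stages, was called for 0 of 35 genes against 0.14% of all genes. Over weeks 8 and 10, which both genotypes have, it was called for 0 against 0.00548%. WT against KO glands over weeks 8, 10 and 12 gave 0 against 0.906%, and WT against KO tumors over weeks 8 and 10 gave 0 against 0.512%. At an unadjusted p under 0.05 these 4 comparisons held 1, 5, 2 and 7 of the genes, and DESeq2 called 0, 0, 1 and 5. Over all 36527 genes tested, 3784, 2038, 4514 and 3996 had an unadjusted p under 0.05, and DESeq2 called 389 lower and 282 higher, 49 and 25, 325 and 416, and 490 and 174. The 1 was Trpc6, and the 5 were Actg2 (-1.90, DESeq2 adjusted p = 0.0285), Kcnmb1 (-2.0, 0.0195), Synpo2 (-1.18, 0.0475), Cald1 (-0.59, 0.0602) and Ldb3 (0.77, 0.0933), with a negative sign meaning lower in WT tumors. In edgeR, Kcnmb1 was at -2.0 in that comparison with an adjusted p of 0.135.

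The intervals around these differences were wide for the deeply falling genes. The WT minus KO tumor effect was -0.10 for Acta2 (interval -1.24 to 1.04), -1.07 for Actg2 (-2.48 to 0.33), 0.74 for Ldb3 (-0.06 to 1.53) and -0.86 for Ppp1r14a (-1.74 to 0.03, adjusted p = 0.502), with a median SE of 0.48 over the 35 genes. Only Trpc6 had an unadjusted p under 0.05 there, at -1.55 (SE 0.67, interval -2.94 to -0.16, adjusted p = 0.411). In glands, Trpc6 read 9.73 and 18.2 CPM (WT week 6), 8.04 and 31.7 (week 8), 12.4 and 38.2 (week 10), and 6.89 and 6.26 (week 12), and 7.05 and 2.41, 8.48 and 5.64, and 8 and 2.12 CPM in KO at weeks 8, 10 and 12. The 3 WT glands above 18 CPM of Trpc6 also held the most Col1a1, a fibroblast collagen, of their pairs, at 60.6, 143 and 17.5 CPM against 6.79, 11.2 and 8.14 CPM in their partners. This was seen in the data and was not tested. The first KO gland of week 10, at 33.8 CPM of Col1a1, read 8.48 CPM of Trpc6, and its partner 8.09 and 5.64 CPM. The WT gland at 38.2 CPM of Trpc6 stays in the fit without glands over 50 CPM of Col1a1. That fit keeps only the first WT gland at week 6 and at week 8. Without the 2 WT glands over 50 CPM of Col1a1, 0 of the 35 genes were called in WT against KO glands or in either WT minus KO tumor effect, and Trpc6 was at 0.98 between glands (adjusted p = 0.594) and -0.94 in the stage-averaged tumor effect (adjusted p = 1). WT against KO glands, Trpc6 was at 1.42 (edgeR adjusted p = 0.211, DESeq2 adjusted p = 0.082). Without the first KO gland of week 12, edgeR called Trpc6 (1.83, adjusted p = 0.0839) and Ppp1r14a (1.14, adjusted p = 0.0419) there, and Ppp1r14a in the difference of tumor effects (-1.63, adjusted p = 0.0411). Cald1 was called in glands without the first WT gland of week 8 (-0.68, adjusted p = 0.081) and in tumors without the second WT tumor of week 10 (-0.72, adjusted p = 0.0864).

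Some libraries stood at the edge of their class for many of the genes. The first WT gland of week 8 was the highest of 8 WT glands for 25 of the 35 genes, and the second WT gland of week 10 the lowest for 16. The first KO gland of week 12 was the highest of 6 KO glands for 21 genes and its partner, with 18.8% ribosomal RNA, the lowest for 26. Among the 9 KO tumors, the first of week 8 was the highest for 15 genes and the second of week 12 the lowest for 20. A fit without the 3 libraries over 10% ribosomal RNA keeps only the first KO gland at week 8 and at week 12. The spread of those glands then comes from other groups, and lost calls there do not show that an effect is absent. Without the 3 libraries over 10% ribosomal RNA, 0 of the 35 were called lower at KO week 8 in place of 7, where 101 of 35973 genes were called lower in all and 68 higher, and Ldb3 was not called there. In that fit the count was 21 at KO week 12 and 24 in the KO mean, and it was 0 for KO tumors by age and for each of the 4 comparisons of WT with KO. Dmd joined Ldb3 as higher in the KO mean, at 0.59 (adjusted p = 0.0496), and Actn1 and Ppp1r12a passed as lower (-0.59 and -0.68). Without the first KO gland of week 12, the KO mean effect of Ppp1r14a was -0.90, of Mylk -1.94, of Cnn1 -2.39, of Cacna1c -2.18, of Lmod1 -2.16, of Myl9 -1.81, of Acta2 -2.34 and of Pdlim3 -0.80. All of these kept their call. Des was at -2.83 in KO without the third KO tumor of week 12, and Myocd at -3.14 in WT without the first WT tumor of week 6 and at -2.81 in KO without the second KO tumor of week 10.

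Other proteins of the same families, made mostly outside smooth muscle, were compared with the set. Of 16 such counterparts, 3 fell in WT, where 9.53% of all genes were called lower, and 1 in KO (5.44%), 1 rose in KO (5.16%), and the medians were -0.33 and -0.20. The cytoplasmic actins Actb and Actg1 were at -0.05 and -0.27 in WT and -0.16 and -0.06 in KO, where Acta2 was at -3.05 and -2.95. Myh9, the main nonmuscle myosin heavy chain, was at -0.39 and -0.31, next to -3.81 and -3.35 for Myh11. Myh10, another nonmuscle heavy chain, fell in KO (-0.77, adjusted p = 0.00311), with -1.12 at week 10, and Myh14 fell at WT week 10 (-0.96) and was higher in WT than in KO glands (0.64). Myl12b, a nonmuscle light chain, rose in KO (0.73, adjusted p = 0.00381), with 1.14 at week 12, and was 0.68 higher in WT than KO glands. Tagln2 fell in WT (-0.68, adjusted p = 0.00492; -0.88 at week 8), as did Vim, vimentin (-0.60, adjusted p = 0.0674), and Cnn3 fell at week 8 in WT (-0.72) and KO (-0.70). Utrn, utrophin, the close relative of dystrophin, fell in WT (-0.85, adjusted p = 2.74e-07), at all 3 ages, where Dmd was at 0.50. Actn4 was lower in WT than in KO glands (-0.81, adjusted p = 0.0961). For the gland differences of Myh14 and Myl12b the edgeR adjusted p was 0.0876 and 0.0928. Of the 16 counterparts 1 was called lower and 2 higher in WT than in KO glands, against 0.906% of all genes in either direction. These gland calls are not given without the libraries rich in ribosomal RNA.

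**Figure D5:**
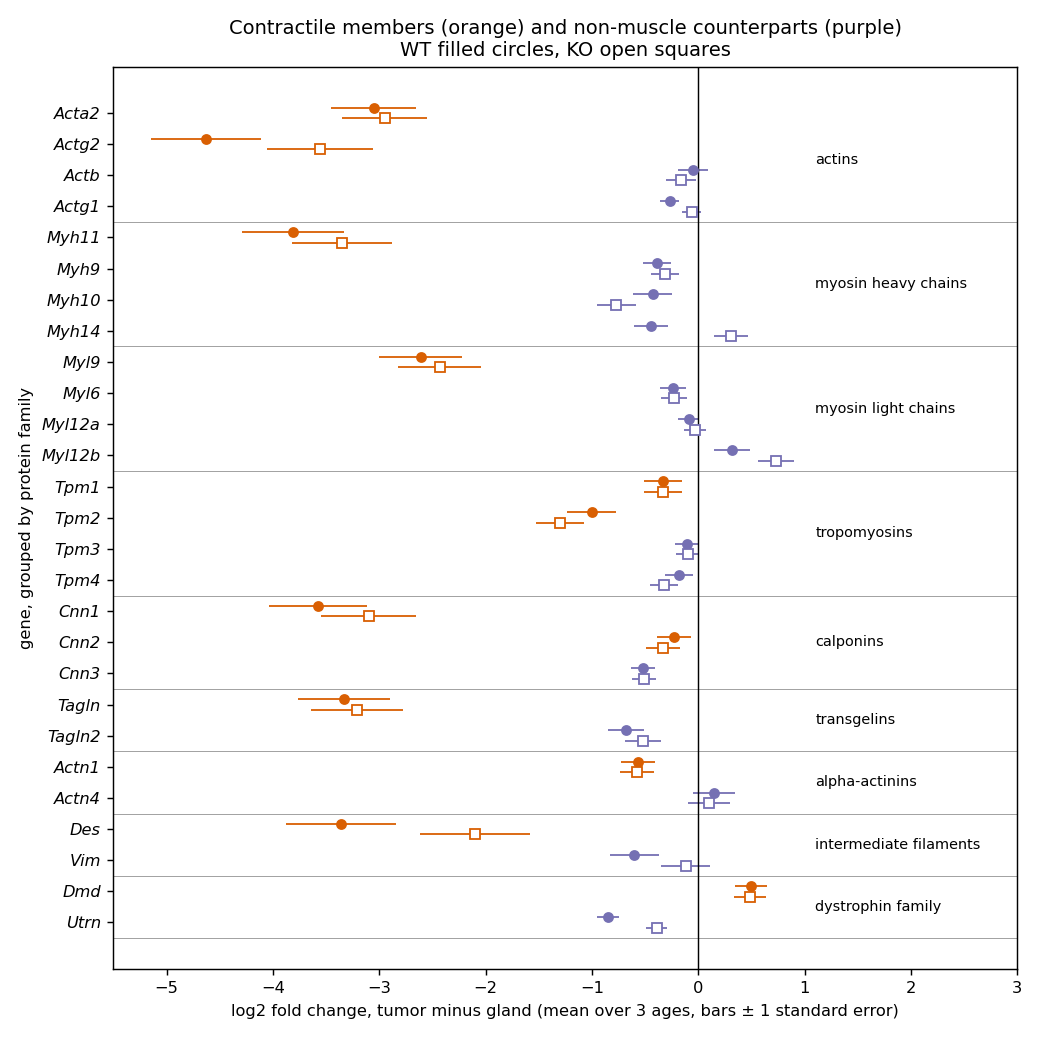
Mean log2 fold change (±1 SE) of contractile genes (orange) and of 15 family members outside smooth muscle (purple), by protein family, for WT (filled circles) and KO (open squares). Acta2, Actg2, Myh11 and Cnn1 lie far to the left of Actb, Actg1 and Myh9, which lie near 0, and in the dystrophin family Dmd lies to the right of Utrn.

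The remaining genes of the contraction pathway (53 genes: calcium handling, cGMP, phosphatase and other arms) had 22 lower and 2 higher in WT, 17 lower and 4 higher in KO, and medians of -0.35 and -0.15. The counts of this and the following lists are to be read against the shares of all tested genes in the same means, 9.53% lower and 6.21% higher in WT and 5.44% lower and 5.16% higher in KO, and they were not refitted without the libraries rich in ribosomal RNA. In the comparisons of WT with KO, 1 of the 53 was called in the tumor effect averaged over stages and 1 between glands. Of the genes that work with SRF and the actin-linked cytoskeleton (30 genes, Myocd and Srf among them), 14 fell and 3 rose in WT and 13 fell and 2 rose in KO. The SRF coactivators Mrtfa and Mrtfb were at -0.37 and -0.16 in WT and -0.24 and 0.21 in KO. Chosen after their values were seen, Irag1, a target of the cGMP-dependent kinase in calcium release (-3.89 and -3.20), and Cacna2d1, an accessory subunit of the L-type channel (-3.78 and -3.04), fell in all 6 age-matched comparisons as deeply as the core genes, and Itpr1, an intracellular calcium release channel, rose in all 6 (0.91 and 0.94).

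Basal genes that do not contract fell along with them. Of 16, 15 fell in WT and 13 in KO, with medians of -1.55 and -1.42, among them the basal keratins Krt5 (-2.84 and -3.01), Krt14 (-0.71 and -1.01), Krt17 (-1.08 and -0.89) and Krt15 (-3.22 and -1.77). Their summed level was 6314 to 16818 CPM in WT glands and 2351 to 5486 CPM in WT tumors, and 7194 to 14798 and 3295 to 6310 CPM in KO, while the 35 contractile genes summed to 9241 to 26605 and 4475 to 8724 CPM in WT and 8891 to 25912 and 4515 to 9778 CPM in KO. Of 14 luminal genes, 1 fell and 2 rose in WT and 1 fell and 4 rose in KO, with medians of 0.16 and 0.17. Krt8, Krt18 and Epcam were at -0.18, 0.21 and -0.07 in WT and -0.14, 0.01 and 0.19 in KO, and Krt19 fell (-2.18 and -1.41).

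Some markers of cells outside the epithelium also differed between tumors and glands, and 0 of the genes in these lists were called in the tumor effect of WT minus KO. Of 10 fibroblast genes 7 fell in WT and 2 in KO (medians -1.80 and 0.38), and their summed level, mostly Postn, was 912 to 4357 CPM in WT glands, 120 to 783 in WT tumors, 443 to 3664 in KO glands and 82.4 to 1098 in KO tumors. Postn did not follow the collagen Col3a1. The first WT gland of week 8 read 4304 CPM of Postn, 6033 of Acta2 and 0.133 of Col3a1. Its partner read 2650, 3059 and 305 CPM. The sum therefore cannot be read as the amount of fibroblast RNA. Of 9 tested pericyte or vascular smooth muscle genes 7 fell and 1 rose in WT and 3 fell and 1 rose in KO (medians -1.90 and -1.34), with sums of 281 to 897, 78.3 to 232, 168 to 734 and 155 to 232 CPM in the same order, mostly Mcam. Among the pericyte genes, Cspg4 read 2.31 to 60.4 CPM in WT glands, 0.197 to 4.24 in WT tumors, 7.8 to 53.1 in KO glands and 0.892 to 9.82 in KO tumors, and fell in both genotypes (-3.89 and -2.67, adjusted p = 1.62e-06 and 0.0002), as did Mcam (-1.74 and -1.46). Pdgfrb, at 2.4 to 33.4 CPM in WT glands and 0.998 to 8.76 in WT tumors, fell in WT (-1.90, adjusted p = 0.0025) and was at -0.97 in KO (adjusted p = 0.175). Rgs5 and Kcnj8 were at 0 to 1.81 and 0 to 1.93 CPM over all libraries, and Higd1b at no more than 0.0341 CPM. Kcnj8, Higd1b, Mcam, Postn and Col1a1 were named after their values were seen. Endothelial genes, of which 6 fell in WT and 1 in KO, summed to at most 22 CPM, lymphocyte genes (2 and 1 fell) to at most 24.6 CPM, adipocyte genes (2 and 0 fell, 1 and 1 rose) to at most 29.4 CPM and skeletal muscle genes (1 and 1 fell, 2 and 1 rose) to 11.4 to 69.2 CPM. In these 10-gene lists a count of 1 is about what the shares of all genes give, and 1 skeletal muscle gene was called higher in WT than in KO tumors. Macrophage genes (4 fell and 1 rose in WT, 0 fell and 2 rose in KO) summed to 63.5 to 172 CPM in glands and 151 to 418 CPM in tumors. The part of these other cells in the fall of the contractile genes was not tested. A fit without the 2 WT glands over 50 CPM of Col1a1 keeps only the first WT gland at week 6 and at week 8. Its calls are therefore no test of those cells. Leaving out only the second WT tumor of week 6 also gave a count of 5 at that age. Without the 2 WT glands over 50 CPM of Col1a1, the WT week 6 count was 5 of 35 and Ldb3 was not called at that age, where 365 of 35922 genes were called lower and 178 higher. In the same fit the WT week 8 count was 26 and the WT mean count 27. Actn1, Cald1 and Pdlim7 gained a call in that mean (-0.70, -0.65 and -0.61), Myocd lost it (-1.45, adjusted p = 0.3), and Trpc6 was at -4.45.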

How the data were processed

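RNA-seq libraries of GFP+ cells sorted from mammary tissue of 33 mice were analysed. Per the labels, the submitters' processing notes and the study's methods, the authors aligned reads with HISAT to Gencode M16 transcripts and GRCm38, removed amplification duplicates with Picard 1.128, which can compress the counts of abundant genes, and counted reads per gene with HTSeq. DESeq2, SAMtools and R 3.6.2 are also named. The strand setting of the counting was not given in the sources used here. The deposited count table holds raw counts of reads per gene. A second deposited table holds reads divided by size factors (normalized signal). With the factor undone, 100% of its values came out whole (tolerance 0.01) and 76.7% to 88.7% per library equalled the count table. It served as an alternative only. The libraries held 28419983 to 130981596 counted reads.

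Rows that name no gene (111 of 55598, 0.0778% of reads) were left out. Genes that reached 10 reads over all libraries were fitted in edgeR 4.0.16 (R 4.3.3; TMM normalization, quasi-likelihood test) with 1 coefficient for each genotype, tissue and week, over all 33 libraries. Standard errors were derived from each log2 fold change and its F statistic. Levels are counts scaled to the TMM-adjusted library size (CPM). Adjusted p-values are Benjamini-Hochberg values over all 36527 genes tested. No test includes the lone WT tumor of week 12 as a group, though it entered the fit. Fits that left out a library, and those added after seeing the data, kept the dispersion trend of the full fit. DESeq2 1.42.0 served as an alternative. Tables were assembled in Python 3.11.15 with pandas 2.3.3. The code was tested on simulated data.

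All 35 genes are named. Genes of the other lists (the pathway, SRF partners, nonmuscle counterparts, and basal, luminal, fibroblast, pericyte, skeletal muscle, endothelial, macrophage, lymphocyte and adipocyte markers) are given by counts, and at most the first 4 tested genes of a list are named, besides every counterpart that was called and a few genes that the text marks as chosen after their values were seen. Some genes of the pathway list are not reported by name here. The genes and lists were chosen with earlier results of these data known. Replicates are separate mice; the least different of 25 pairs within a group had a chi-square of 37.39 per degree of freedom, so each was counted as its own replicate. Reads of overlapping genes could be shared: exons of 9 of the 35 genes (Actn1, Des, Kcnma1, Mylk, Pde5a, Smtn, Synm, Tagln and Vcl) overlap a gene on the opposite strand, and Pdlim7 overlaps Mir6945 on the same strand. Gene positions and exon lengths come from Gencode vM21, also on GRCm38.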

Additional observations from a re-analysis of the deposited data

How the results depend on the processing

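With 2 glands and 3 tumors an age, counts at single ages are imprecise, and those of the means are firmer. A fit without a gland rests on its partner alone at that age. Leaving out 1 library, the number of genes called lower ranged from 5 to 16 (WT week 6), 20 to 25 (WT week 8), 4 to 17 (WT week 10), 0 to 13 (KO week 8), 2 to 17 (KO week 10), 3 to 21 (KO week 12), 21 to 26 (WT mean) and 20 to 24 (KO mean). The number called higher ranged from 0 to 1 at WT week 6 and KO week 8, 1 to 2 at KO week 12 and in the WT mean, and was 1 throughout in the others. In the comparisons with no call it ranged from 0 to 1 (tumor effect WT minus KO by stage, WT against KO tumors) and 0 to 2 (WT against KO glands), and stayed at 0 in the rest. Of the mean effects of single genes, 1000 kept their side of the threshold in such fits, 31 lost the call, 18 gained it and 1 changed sign: Pde5a in KO, which ran from -0.12 to 0.06 and was at 0.06 without the first KO gland of week 12. At KO week 8 the count of genes called lower was 16 with DESeq2 (920 of 36527 genes in all), 16 with no low-count filter (905 of 49472), 13 with only the groups compared (801 of 23615), and 0 (with 0 higher) without libraries over 10% ribosomal RNA. At KO week 12 it was 0, with 0 higher, with only the groups compared, where no gene of 22035 tested was called and 3056 had an unadjusted p under 0.05. Without the WT glands over 50 CPM of Col1a1 it was 5 at WT week 6, with 0 higher. The KO mean had 2 genes higher (Ldb3 and Dmd) without libraries over 10% ribosomal RNA. Counts also moved from 0 in WT tumors by age (1 with DESeq2, 3 with no low-count filter), KO tumors by age (1 with no filter), tumor effect WT minus KO at weeks 8 and 10 (1 with no filter), WT against KO glands (1 with DESeq2, 1 with no filter) and WT against KO tumors (5 with DESeq2, 4 with no filter, 1 with only the groups compared). In the same order, all 49472 genes with no filter gave 197 lower and 243 higher, 91 and 85, 112 and 26, 257 and 465, and 405 and 168. For WT against KO tumors with only the groups compared, 111 of 28355 genes were lower and 46 higher. Libraries of the same replicate number did not deviate together (12 pairs, r from -0.309 to 0.0894), so the numbers do not pair the mice. With the replicate number as a block, 11 genes were called lower at KO week 8 (470 of 36527 genes in all). In WT against KO tumors 1 was called (Actg2, -1.85), where 182 of all genes were lower and 56 higher. In that fit 3 of the 70 mean effects lost the call. Of those 70, DESeq2 kept 68 and added 2, a fold over 2 kept 65, and the recovered reads of the second table kept all 70.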
